A study of Xenopus laevis with 15 samples.

Results

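Extracellular ATP and its breakdown products act on cells through a small set of receptors, and a chain of surface enzymes removes them. The genes described here are the purinergic receptors (P2X, P2Y and adenosine receptors), the pannexin channels, the enzymes that hydrolyse nucleotides (NTPDases, ENPP enzymes and ecto-5′-nucleotidase), the adenosine deaminases and adenosine kinase, and the equilibrative nucleoside transporters of the slc29a family. They were found by gene symbol, as every row of the count table that ends in .L or .S and begins with a listed name. The names were p2rx, p2ry, adora, entpd, enpp or panx followed by a digit, and nt5e, ada2 or slc29a (1 to 4). The names ada and adk counted only where a dot followed directly. This gave 70 of 42638 rows, which carry 45 symbols. Xenopus laevis has 2 subgenomes, L and S, and 25 of the symbols were present as both copies (homeologs). Of the 70 rows, 40 had enough reads to enter the tests, out of 24052 genes tested.

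RNA was sequenced from Xenobots, self-moving constructs that form from ectoderm (animal caps) cut from wild-type Xenopus laevis embryos at the blastula stage and left to develop for 7 days at 14 °C. The ATP groups were collected directly (0 h) or 4 h after 250 µM ATP was added, and the extract groups at the same times after 10 µL of an extract of 3 homogenised embryos was added per 14 mL of medium. The Ctrl group was collected before any stimulus, so it describes the constructs at rest. Each of the 15 libraries, 3 per group, came from a pool of 50 Xenobots. The labels do not say whether the 3 pools of a group came from separate batches of embryos, so p-values measure the spread between these pools. No unstimulated 4 h samples were analysed here, and in the 4 h groups the time in the dish and the stimulus cannot be told apart.

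Total counts ranged from 12583039 to 20325075 per library, of which ribosomal RNA genes took 20.1% to 43.3%. The labelled epidermal identity was reflected in the markers. All 14 keratin and basal cell marker rows found in the table reached a CPM of 1 (CPM is the read count scaled to the size of the library), and their sum lay between 6211 and 9102 CPM in every library. Multiciliated cell markers summed to 422 to 544 CPM, ionocyte markers to 701 to 896 CPM and goblet and small secretory cell markers to 3609 to 5791 CPM. In this order 11 of 16, 10 of 10 and 5 of 7 rows averaged at least 1 CPM. Both copies of ccno and mcidas, tuba1a.S, itln2.L and otog.L were below it. Most of the goblet and secretory sum was itln1.L, which averaged 4404 CPM. Neural, blood, and notochord or endoderm markers each summed to at most 5.21 CPM in any library. Muscle markers did not behave in this way. Their sum was 7.76 to 78.1 CPM in ATP 0 h, 114 to 239 CPM in ATP 4 h, 6.76 to 21.7 CPM in extract 0 h, 7.33 to 34.9 CPM in extract 4 h and 19.0 to 204 CPM in Ctrl, and it is given again beside the genes it was compared with. Most of it came from myh4.L, ckm.L and actc1, which encode proteins of muscle fibres, while the muscle determination factor myod1 averaged 0.274 CPM for its .L copy and 0.153 CPM for its .S copy.

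P2X receptors are ion channels opened by ATP, whereas P2Y and adenosine receptors are G protein-coupled receptors for nucleotides and for adenosine. NTPDases and some ENPP enzymes cut ATP down to AMP, ecto-5′-nucleotidase turns AMP into adenosine, and adenosine is then deaminated, phosphorylated or carried across membranes. In Xenopus embryos purinergic signalling is known from eye field formation, where an NTPDase acts together with the ADP receptor P2Y1, and epithelia in general release ATP when they are damaged or stretched.

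At rest, the receptor rows were sorted by a Ctrl mean of 1 CPM, which is a chosen level and not the limit of detection. Among them 17 had enough reads to enter the tests, and 3 had no read in Ctrl. Of 31 receptor rows, 9 had a Ctrl mean of at least 1 CPM, namely p2rx4.L among the P2X channels, p2ry6.S, p2ry10.S, p2ry4.L, p2ry11.L, p2ry2.L and p2ry2.S among the P2Y receptors, and adora2a.L and adora2a.S among the adenosine receptors. Across all classes, 27 of 70 rows (38.6%) reached this level, beside 49.1% of all rows of the table, and 15 reached 10 CPM. CPM is not corrected for transcript length, since no lengths were at hand. Where genes are called lower or higher than others below, this refers to their reads and does not rank them by transcript number. The 1 CPM level has the same limit.

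**Figure D1:**
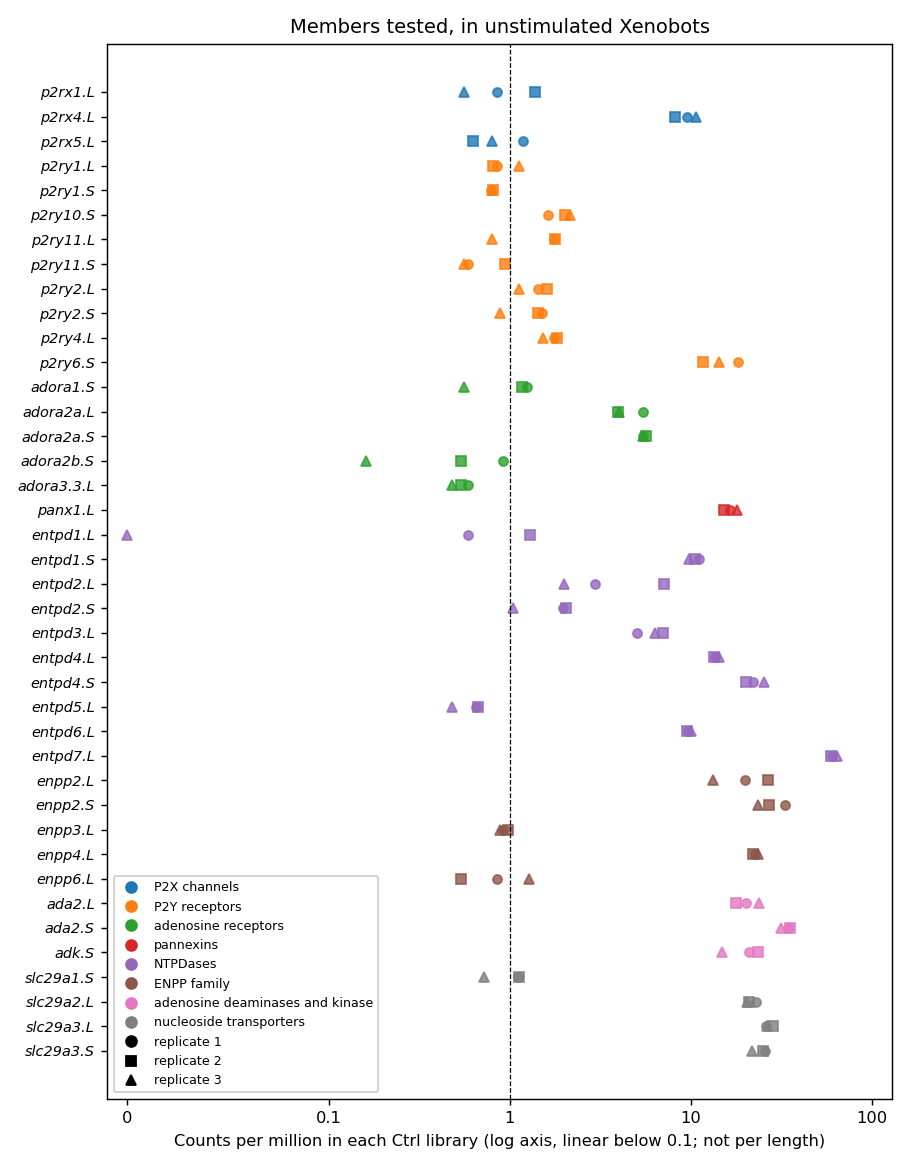
CPM of the 40 tested genes in each of the 3 unstimulated Ctrl libraries (log axis, linear below 0.1), coloured by class, with a symbol for each replicate and a dashed line at 1 CPM. Among the receptors only p2ry6.S averaged above 10 CPM, at 14.7 CPM. Most plotted NTPDase, adenosine deaminase and kinase, and transporter genes stand to the right of the line. Rows with too few reads to be tested are not plotted. Over all rows of these classes, 8 of 12, 3 of 6 and 3 of 5 reached 1 CPM.

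Among the P2X channels, 1 of 7 rows reached 1 CPM. The row was p2rx4.L, whose product is an ATP-gated cation channel found on the surface and in lysosomes of epithelial cells. It had 9.49, 8.14 and 10.7 CPM in the 3 Ctrl libraries, a mean of 9.46 ± 1.30 (SD, n = 3). The other rows lay far lower, with Ctrl means of 0.933 CPM for p2rx1.L, 0.869 CPM for p2rx5.L, 0.493 CPM for p2rx7.L and 0.448 CPM for p2rx5.S. Both copies of p2rx2 were close to the limit of detection, at 0.0436 CPM (.L) and 0.0752 CPM (.S). In RefSeq, p2rx4.L and p2rx7.L are neighbours with 0 genes between them.

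Of 18 P2Y rows, 6 reached 1 CPM. The UDP receptor P2Y6 was represented by its .S copy, which had 18.3, 11.6 and 14.3 CPM in Ctrl, a mean of 14.7 ± 3.37 (SD, n = 3). Its .L copy averaged 0.216 CPM. The genes of P2Y2, a receptor for ATP and UTP that raises calcium, were lower and close to each other, at 1.39 ± 0.248 CPM for p2ry2.L and 1.27 ± 0.341 CPM for p2ry2.S (SD, n = 3 each). RefSeq places p2ry6 directly beside p2ry2 in both subgenomes.

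The other P2Y genes above 1 CPM were p2ry4.L, p2ry11.L and p2ry10.S. The gene p2ry4.L, named after a human receptor for UTP, had 1.77, 1.83 and 1.52 CPM in Ctrl, a mean of 1.71 ± 0.164 (SD, n = 3), and RefSeq lists p2ry8 among its synonyms. P2Y11 is an ATP receptor in humans, and p2ry11.L averaged 1.45 ± 0.564 CPM (SD, n = 3), with 1.77, 1.79 and 0.801 CPM. The last gene, p2ry10.S, had 1.64, 2.01 and 2.16 CPM, and human P2RY10 responds to lysophosphatidylserine and not to a nucleotide.

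Below 1 CPM, the ADP receptor genes p2ry1.L and p2ry1.S averaged 0.926 and 0.797 CPM, and p2ry11.S averaged 0.696 CPM. The genes of the ADP receptors P2Y12 and P2Y13 and of the UDP-glucose receptor P2Y14, which in mammals are best known from platelets, microglia and blood cells, were at 0.122 CPM or less. No read was counted in Ctrl for either p2ry8 copy.

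Both copies of adora2a, the gene of an adenosine receptor that raises cyclic AMP, were present at rest. The .L copy had 5.43, 3.98 and 4.01 CPM and the .S copy 5.43, 5.68 and 5.45 CPM, with means of 4.47 ± 0.830 and 5.52 ± 0.139 (SD, n = 3 each). The other adenosine receptor genes were lower, with 0.989 CPM for adora1.S, 0.538 CPM for adora2b.S and 0.536 CPM for adora3.3.L, and adora1.L had no reads in Ctrl. Of the pannexins, which form large-pore channels through which ATP can leave a cell, panx1.L had 16.4, 15.2 and 18.0 CPM, a mean of 16.5 ± 1.37 (SD, n = 3). The 4 other pannexin rows were at 0.0534 CPM or less, and panx2.S had no read in any of the 15 libraries.

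Among the nucleotide-removing enzymes, the NTPDases had the largest share of rows at 1 CPM or more. Of 12 NTPDase rows, 8 reached 1 CPM. The intracellular forms, which act on nucleotides inside the Golgi and other compartments, were represented by entpd7.L at 61.2 ± 2.58 CPM, entpd4.S at 22.6 CPM, entpd4.L at 13.8 CPM and entpd6.L at 9.72 CPM. The surface forms, which degrade extracellular ATP and ADP, were represented by entpd1.S at 10.5 CPM, entpd3.L at 6.13 CPM, entpd2.L at 4.02 CPM and entpd2.S at 1.69 CPM. The remaining rows, both copies of entpd8, entpd1.L and entpd5.L, were at 0.629 CPM or less.

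Of 9 ENPP rows, 3 reached 1 CPM, and the best-known nucleotide-cleaving members were not among them. These 3 were enpp2.S at 27.9 CPM and enpp2.L at 20.0 CPM, which encode autotaxin, the secreted enzyme that makes lysophosphatidic acid, and enpp4.L at 22.8 CPM. By contrast enpp1.L, whose product releases pyrophosphate from ATP, averaged 0.311 CPM, and enpp3.L, a gene of the same activity and its RefSeq neighbour, 0.927 CPM. The glycerophosphocholine-cleaving enzyme gene enpp6.L averaged 0.890 CPM. The enpp7 rows, named after an intestinal sphingomyelinase, were at or near 0.

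Ecto-5′-nucleotidase, the surface enzyme that makes adenosine from AMP, was close to the limit of detection. In Ctrl its 2 rows held 11 reads in all for nt5e.L, a mean of 0.210 CPM, and 1 read for nt5e.S. The enzymes downstream of adenosine were present, with ada2.S at 33.8 CPM, ada2.L at 20.6 CPM and adk.S at 19.7 CPM. Here ada2 encodes a secreted adenosine deaminase and adk encodes adenosine kinase, while the rows of the intracellular deaminase ada and of ada.2.S were at 0.440 CPM or less. The transporter genes slc29a3.L, slc29a3.S and slc29a2.L averaged 27.0, 24.2 and 21.5 CPM, the slc29a3 product being a lysosomal carrier and the slc29a2 product a carrier of the plasma membrane. The slc29a1 rows, which encode the other plasma membrane carrier, averaged 0.984 CPM (.S) and 0.508 CPM (.L).

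Of the 70 rows, 7 had no read in Ctrl, namely adora1.L, enpp7-l.L, enpp7.S, p2ry8.L, p2ry8.S, panx2.L and panx2.S. A count of 0 over the 3 Ctrl libraries allows up to 3 reads, or 0.0599 CPM, and 19 rows held 3 reads or fewer. This limit covers counting error only. In pooled constructs, few cells with a gene and little RNA per cell cannot be told apart, so a low CPM can go with strong expression in rare cells.

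Several symbols had unlike homeologs at rest. The .S copy carried nearly all reads of p2ry6 (14.7 CPM, .L 0.216 CPM), p2ry10 (1.94 CPM, .L 0.0149 CPM) and entpd1 (10.5 CPM, .L 0.629 CPM). In adora1 the .L copy had no read. Other pairs were closer, such as slc29a3 (27.0 CPM .L, 24.2 CPM .S) and p2ry2. The split of reads between copies that share sequence is an estimate of the counting software, so small differences within a pair are uncertain.

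The first comparison asked how these genes differed directly after ATP. No member passed the test, in which an adjusted p under 0.05 is called, and edgeR's quasi-likelihood test with Benjamini-Hochberg adjustment called 0.00% of all genes. DESeq2 and limma-voom called 0 members too, and over all genes DESeq2 called 5 and limma-voom 0. A limma test of the authors' deposited table of adjusted values called 0 members, beside 1.92% of all genes. It covered 50 members and 28009 genes. Variation had already been removed from these values and the fit does not count it, so its p-values can be too small in every comparison. At an unadjusted p under 0.05 there was 1 member, enpp2.L, beside 3.58% of all genes, and with the replicate number as a block there were 2, enpp2.L and p2ry4.L. Fitted log2 fold changes were above 0 for 17 members and below 0 for 23, or 57.5%, beside 49.4% of all genes, with a median of -0.05 over the members and 0.00 over all genes.

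The receptors that were best detected had nearly equal levels in the ATP 0 h and Ctrl groups. For p2rx4.L the ATP 0 h libraries had 10.2, 9.43 and 6.69 CPM, against the Ctrl values given above, and the groups overlapped. Its log2 fold change was -0.09, with a 95% interval of -0.46 to 0.27. For p2ry6.S the ATP 0 h libraries had 15.998, 14.6 and 13.8 CPM, and the log2 fold change was 0.01, with an interval of -0.38 to 0.40. The pannexin gene panx1.L had 16.7, 15.8 and 12.9 CPM, and its log2 fold change was -0.12, with an interval of -0.39 to 0.15. Values in either direction within these intervals cannot be told from no change.

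All 5 tested adenosine receptor rows had a log2 fold change above 0 (0.07 to 0.43) in ATP 0 h, while 49.4% of all genes lay below 0. Only the adora2a copies among them averaged 1 CPM or more in Ctrl, and the split was not tested. The copy with the tightest replicates was adora2a.S, with 6.41, 6.90 and 6.30 CPM in ATP 0 h, against 5.43, 5.68 and 5.45 CPM in Ctrl. All 3 ATP 0 h libraries thus stood above all 3 Ctrl libraries, as they did for 5.40% of all genes. The log2 fold change was 0.24 (SE 0.19), with an edgeR adjusted p = 0.984. No other member stood wholly above Ctrl, and 1, p2ry1.S, stood wholly below it, beside 3.81% of all genes. The 3 smallest p-values belonged to enpp2.L, p2ry4.L and entpd4.L. Of these entpd4.L had 15.2, 16.7 and 14.2 CPM in ATP 0 h, against 13.7, 13.5 and 14.3 CPM in Ctrl, and a log2 fold change of 0.16 (edgeR adjusted p = 0.984), with overlapping groups. Without ATP 0 h replicate 2 it was 0.10, and without ATP 0 h replicate 3 it was 0.21. With the reads of both entpd4 copies summed, the log2 fold change was -0.02.

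**Figure D2:**
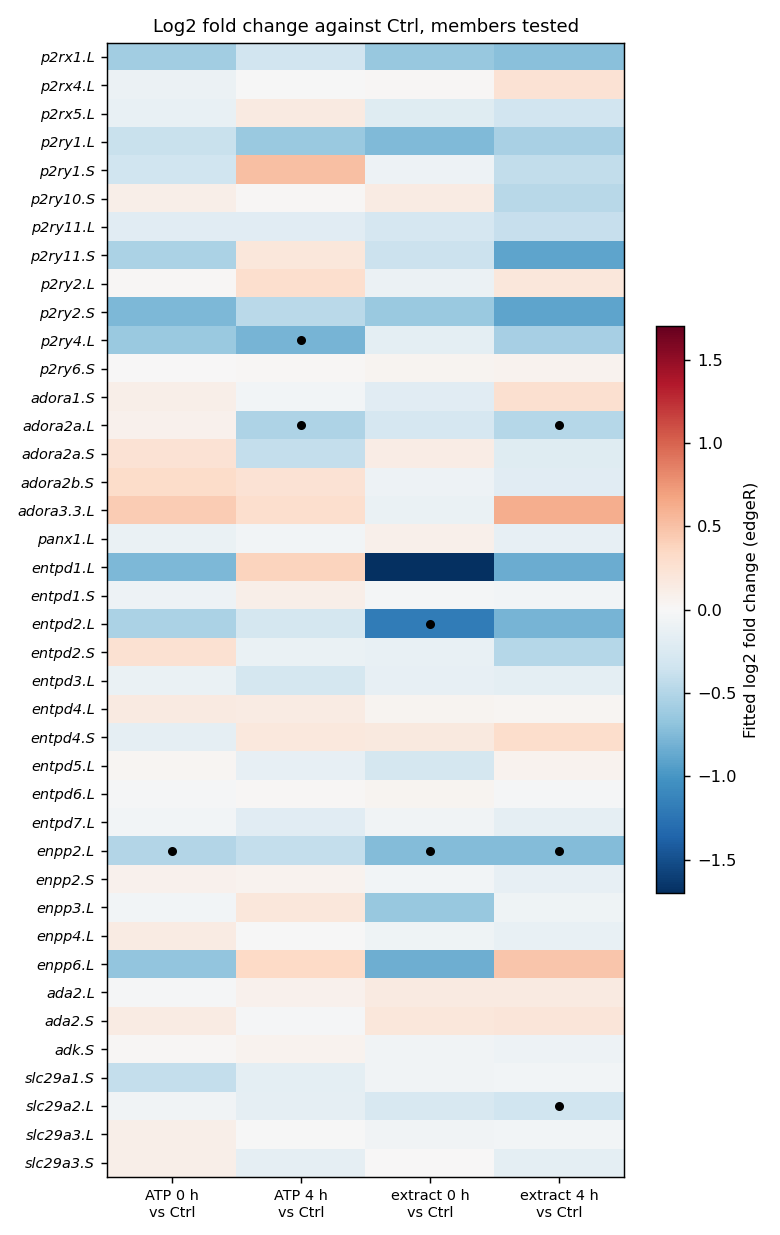
Fitted log2 fold changes of the 40 tested genes (rows) in ATP 0 h, ATP 4 h, extract 0 h and extract 4 h against Ctrl (columns), with a dot where the unadjusted edgeR p was under 0.05. By column the dots number 1, 2, 2 and 3 (2.5%, 5%, 5% and 7.5%), beside 3.58%, 3.29%, 4.53% and 7.27% of all genes. None passed adjustment over the 24052 genes tested. All stand on values below 0, but every column shares the same 3 Ctrl libraries. The gene enpp2.L has a dot in ATP 0 h, extract 0 h and extract 4 h.

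At 4 h after ATP, the members with the smallest p-values were receptor genes, p2ry4.L and the copies of adora2a. No member was called (adjusted p), beside 0.00416% of all genes, and DESeq2 and limma-voom called 0 members as well, with 6 and 1 calls over all genes. In the authors' deposited table of adjusted values, limma called 1 of 50 members, or 2%, beside 2.04% of all genes. The member was p2ry4.L (adjusted p = 0.0465), and this limma p-value carries the limit given above. At an unadjusted p under 0.05 there were 2 members, p2ry4.L and adora2a.L, beside 3.29% of all genes. Log2 fold changes were above 0 for 18 members and below 0 for 22, or 55%, beside 49.4% of all genes, with a median of -0.01 over the members and 0.00 over all genes.

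The P2Y gene p2ry4.L had 0.812, 0.937 and 1.22 CPM in ATP 4 h, against 1.77, 1.83 and 1.52 CPM in Ctrl. Every ATP 4 h library was below every Ctrl library. Its log2 fold change was -0.79 (SE 0.33; edgeR adjusted p = 1.00). At 0 h after ATP the values were 0.646, 1.10 and 1.63 CPM, a log2 fold change of -0.63 (edgeR adjusted p = 0.984), and the third library reached into the Ctrl range. Without ATP 0 h replicate 1 this value was -0.34, and without replicate 3 it was -0.97. Averaged over both times the log2 fold change was -0.71 (edgeR adjusted p = 1.00). The gene is read thinly, with 19 to 41 counts per Ctrl library, and its interval in ATP 4 h ran from -1.50 to -0.08.

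For adora2a.L the ATP 4 h libraries had 2.78, 3.38 and 3.12 CPM, against 4.47, 5.57 and 3.97 CPM in ATP 0 h and 5.43, 3.98 and 4.01 CPM in Ctrl. The 4 h libraries lay below all libraries of both other groups. The log2 fold change of ATP 4 h against Ctrl was -0.53 (SE 0.22; edgeR adjusted p = 1.00). It was -0.37 without Ctrl replicate 1 and -0.61 without Ctrl replicate 2. For adora2a.S the ATP 4 h libraries had 3.13, 4.22 and 5.20 CPM, below the Ctrl values given above, and the log2 fold change was -0.40 (SE 0.19; edgeR adjusted p = 1.00). Without ATP 4 h replicate 1, the lowest of these, it was -0.22, and without ATP 4 h replicate 3 it was -0.59. In all, 3 members (7.5%) had every ATP 4 h library below Ctrl, p2ry4.L and both adora2a copies, beside 4.47% of all genes. Another, entpd4.L (2.5%), had every library above it, beside 3.80%.

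The comparison of ATP 4 h with ATP 0 h put the 2 copies of adora2a side by side without using Ctrl. The log2 fold change was -0.65 for adora2a.S (SE 0.19; edgeR adjusted p = 0.469) and -0.60 for adora2a.L (SE 0.22; edgeR adjusted p = 0.540). Each copy had its 3 ATP 4 h libraries below its 3 ATP 0 h libraries. With the reads of both copies summed the log2 fold change was -0.63 (edgeR adjusted p = 0.440). The muscle marker sum was 114 to 239 CPM in ATP 4 h and 7.76 to 78.1 CPM in ATP 0 h. With its log2 as a covariate the values were -0.59 for adora2a.S and -0.55 for adora2a.L (edgeR adjusted p = 0.917 for each). Since the sums did not overlap, this fit cannot separate muscle content from the time after ATP. No member was called, beside 0.0125% of all genes, and with the replicate number as a block 0 members and 0.0582% of all genes were. With the block the log2 fold change was -0.66 for adora2a.S (edgeR adjusted p = 0.198) and -0.60 for adora2a.L (edgeR adjusted p = 0.345). DESeq2 and limma-voom called 0 members, with 35 and 3 calls over all genes. In the authors' deposited table limma called 1 of 50 members, adora2a.S (adjusted p = 0.0294), or 2%, beside 6.32% of all genes. The 2 adora2a rows (5%) were the only members at an unadjusted p under 0.05, beside 8.84% of all genes. In 3 members (7.5%) every ATP 4 h library was below every ATP 0 h library, beside 7.82%. They were both adora2a copies and slc29a3.S. A further 2 (5%), p2ry11.S and entpd1.S, had every ATP 4 h library above, beside 6.48%. Log2 fold changes were below 0 for 20 of 40 members, beside 50.3% of all genes.

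**Figure D3:**
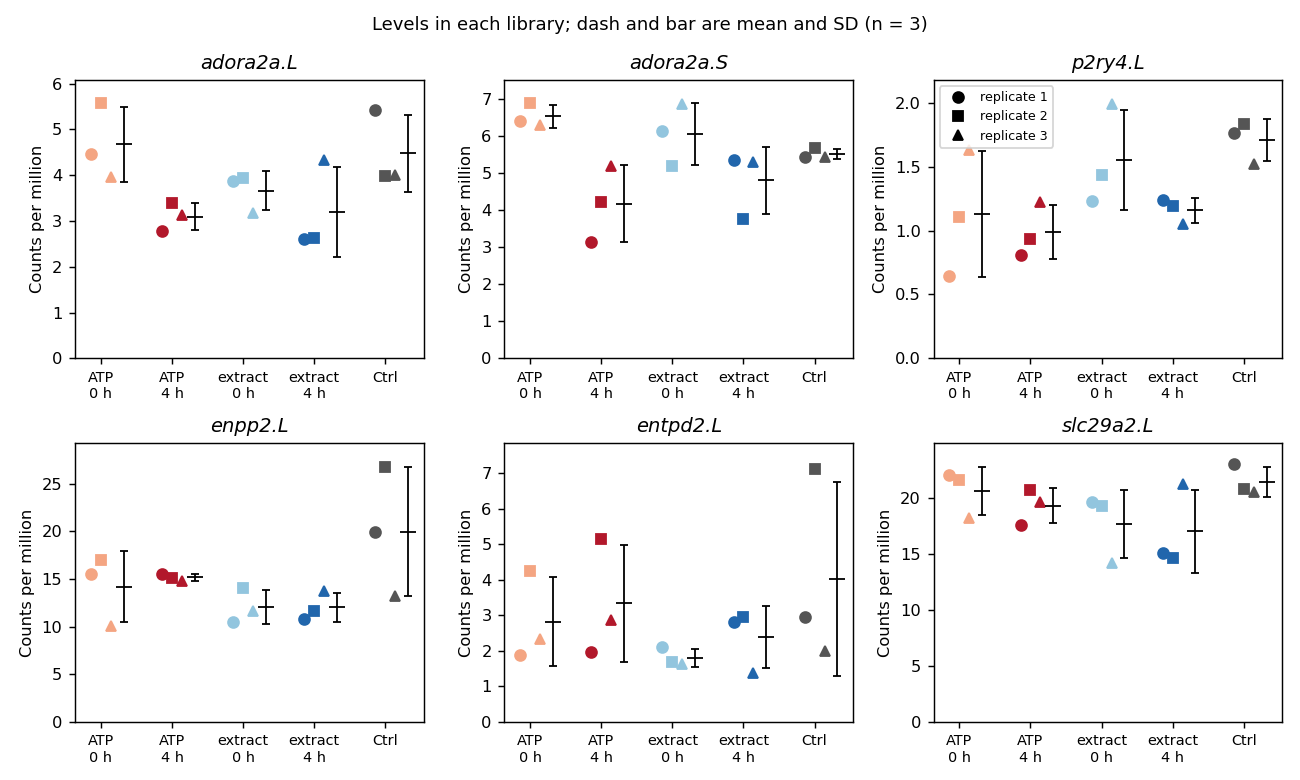
CPM in each library for adora2a.L, adora2a.S, p2ry4.L, enpp2.L, entpd2.L and slc29a2.L, by group from ATP 0 h on the left to Ctrl on the right, with a symbol for each replicate and the mean and SD (n = 3) beside it. The adora2a.S libraries of ATP 4 h (3.13 to 5.20 CPM) stand below those of ATP 0 h (6.30 to 6.90 CPM), and the highest enpp2.L and entpd2.L values both belong to Ctrl replicate 2 (26.8 and 7.11 CPM).

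Directly after the embryo extract, the members with the smallest p-values were enzymes, enpp2.L, entpd2.L and entpd1.L. No member was called by edgeR, beside 0.00% of all genes, and with the replicate number as a block 0 members and 0.0208% of all genes were called. DESeq2 and limma-voom called 0 members and 0 genes. In the authors' deposited table limma called 0 members, beside 2.80% of all genes. At an unadjusted p under 0.05 there were 2 members, enpp2.L and entpd2.L, beside 4.53% of all genes. More members had a log2 fold change below 0 (29) than above it (11), or 72.5% below 0, beside 47.1% of all genes, and the median was -0.10 over the members and 0.01 over all genes. The members are read at unlike depths and share the same 3 Ctrl libraries, and the split was not tested.

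The autotaxin gene enpp2.L had 10.5, 14.0 and 11.7 CPM in extract 0 h and 10.8, 11.6 and 13.8 CPM in extract 4 h, against 20.0, 26.8 and 13.2 CPM in Ctrl. Ctrl replicate 3 lay within the range of the extract libraries, so the groups overlapped at both times. The log2 fold change was -0.74 at 0 h (SE 0.23; edgeR adjusted p = 0.906) and -0.74 at 4 h (SE 0.22; edgeR adjusted p = 0.644). At either time it was -0.47 without Ctrl replicate 2 and -0.96 without Ctrl replicate 3. Averaged over both times it was -0.74 (edgeR adjusted p = 0.401), and the limma test of the authors' deposited table called it (-0.52, adjusted p = 0.0325). In ATP 0 h the libraries had 15.6, 17.04 and 10.0 CPM and in ATP 4 h 15.5, 15.1 and 14.8 CPM, with log2 fold changes of -0.49 (edgeR adjusted p = 0.984) and -0.41 (edgeR adjusted p = 1.00).

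The same Ctrl libraries enter all of these values, and Ctrl replicate 2 was the highest of the 15. Without it the averaged log2 fold change after extract was -0.47, that after ATP -0.18 and that in ATP 0 h -0.22. Without Ctrl replicate 3 these values were -0.96, -0.67 and -0.71. The other copy, enpp2.S, had a mean of 27.0 ± 3.05 CPM in extract 0 h, 25.5 ± 2.37 CPM in extract 4 h and 27.9 ± 4.76 CPM in Ctrl (SD, n = 3 each), and its averaged log2 fold change was -0.09. With the reads of both copies summed the averaged log2 fold change of enpp2 was -0.34. Extract and ATP were also set against each other without Ctrl. There the log2 fold change of enpp2.L was -0.29, with a 95% interval of -0.63 to 0.06.

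For entpd2.L, whose product is a surface enzyme that turns ATP into ADP, the libraries had 2.09, 1.67 and 1.63 CPM in extract 0 h and 2.82, 2.95 and 1.38 CPM in extract 4 h, against 2.95, 7.11 and 2.00 CPM in Ctrl. Ctrl replicate 2 held more than the other 2 Ctrl libraries together, and the groups overlapped. Its log2 fold change was -1.19 at 0 h (SE 0.49; edgeR adjusted p = 1.00) and -0.78 at 4 h (edgeR adjusted p = 0.683), and averaged over both times it was -0.99 (edgeR adjusted p = 0.631). Without Ctrl replicate 2 the value was -0.47 at 0 h and -0.27 averaged, and without Ctrl replicate 3 it was -1.49 and -1.29. For entpd1.L the libraries had 0.184, 0.239 and 0.181 CPM in extract 0 h, against 0.589, 1.30 and 0 CPM in Ctrl, a log2 fold change of -1.69 (SE 0.88; edgeR adjusted p = 1.00) that rests on 38 Ctrl reads. Without Ctrl replicate 2, which holds 29 of these reads, it was -0.61, and without Ctrl replicate 3 it was -2.20. In the authors' deposited table it was 0.33.

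The libraries also differed in their muscle markers. The muscle marker sum was 96.1, 204 and 19.0 CPM in Ctrl replicates 1, 2 and 3, and at most 34.9 CPM in the 6 extract libraries. Beside the group terms, entpd2.L had a slope of 0.39 (SE 0.10) and entpd1.L of 0.72 (SE 0.19) log2 units for each doubling of the sum. Neither slope passed adjustment over all genes (edgeR adjusted p = 0.0804 for entpd2.L and adjusted p = 0.109 for entpd1.L), no member did, and 1.17% of all genes did. With the replicate number in the same fit, 0.125% of all genes and no member passed. There the slope was 0.22 (SE 0.14) for entpd2.L and 0.66 (SE 0.30) for entpd1.L. For the replicate number beside the groups, the edgeR adjusted p was 0.0737 for entpd2.L and 0.262 for entpd1.L. Libraries numbered 1, 2 and 3 averaged 2.34, 4.23 and 2.04 CPM of entpd2.L. Whether these genes followed the muscle sum or the replicate number was not tested. With the log2 sum as a covariate, the log2 fold change of entpd2.L was -0.07 in extract 0 h (edgeR adjusted p = 0.998) and that of entpd1.L was 0.45. For enpp2.L the averaged value after extract became -0.46 (edgeR adjusted p = 0.709). The part of muscle-like cells in these differences was not tested, and the fits with this sum were added after the values were seen.

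**Figure D4:**
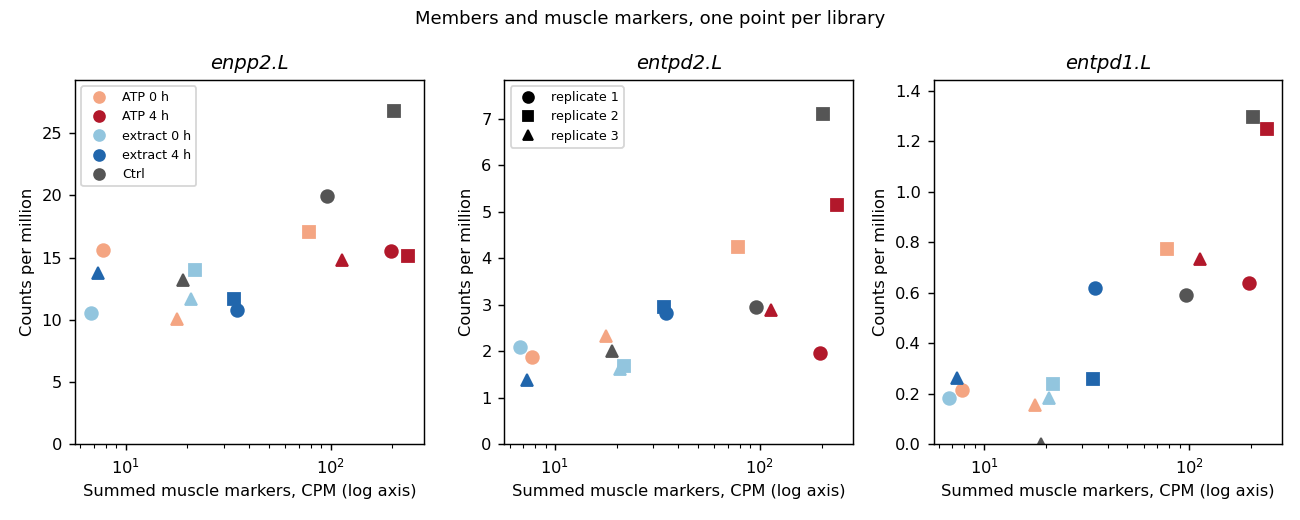
CPM of enpp2.L, entpd2.L and entpd1.L in each of the 15 libraries against the summed CPM of muscle markers in the same library (log axis), coloured by group, with a symbol for each replicate. Ctrl replicate 2 is the highest point of all 3 genes, at a marker sum of 204 CPM, and the extract libraries lie at sums of at most 34.9 CPM.

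At 4 h after the extract, 3 members had an unadjusted p under 0.05, enpp2.L, adora2a.L and slc29a2.L, beside 7.27% of all genes. No member was called, beside 0.00% of all genes, and DESeq2 and limma-voom called 0 members, with 12 and 0 calls over all genes. In the authors' deposited table limma called 2 of 50 members, or 4%, beside 6.44% of all genes. These were ada2.S and slc29a1.L, of which slc29a1.L had too few reads to enter the edgeR test. Log2 fold changes were below 0 for 29 members and above 0 for 11, or 72.5% below 0, beside 49.9% of all genes, with a median of -0.15 over the members and 0.00 over all genes. Of the 17 tested receptor rows 12 had a value below 0.

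The adenosine receptor gene adora2a.L had 2.61, 2.64 and 4.32 CPM in extract 4 h, against 5.43, 3.98 and 4.01 CPM in Ctrl, and the third extract library lay inside the Ctrl range. The log2 fold change was -0.49 (SE 0.22; edgeR adjusted p = 0.673), and without extract 4 h replicate 3 it was -0.77. The other copy, adora2a.S, had 5.36, 3.77 and 5.30 CPM, all below the 3 Ctrl values, with a log2 fold change of -0.21 (edgeR adjusted p = 0.777). After extract 0 h the copies had opposite signs, -0.28 for adora2a.L and 0.13 for adora2a.S. The transporter gene slc29a2.L had 15.1, 14.7 and 21.3 CPM in extract 4 h, against 23.0, 20.8 and 20.5 CPM in Ctrl. The log2 fold change was -0.34 (SE 0.16; edgeR adjusted p = 0.673). Without extract 4 h replicate 3 the value was -0.53, and without extract 4 h replicate 2 it was -0.24. In extract 0 h the slc29a2.L values were 19.7, 19.3 and 14.2 CPM, all below Ctrl, and the averaged log2 fold change was -0.30 (edgeR adjusted p = 0.681).

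Among the P2Y genes, p2ry4.L, p2ry1.L, p2ry1.S and p2ry11.S had every extract 4 h library below every Ctrl library. With adora2a.S these make 5 members, beside 5.68% of all genes, while ada2.S alone had every library above Ctrl, beside 6.05%. For p2ry4.L the extract 4 h libraries had 1.24, 1.19 and 1.05 CPM, against 1.77, 1.83 and 1.52 CPM in Ctrl, a log2 fold change of -0.56 (SE 0.33; edgeR adjusted p = 0.681). For p2ry1.L, the ADP receptor gene, the libraries had 0.369, 0.716 and 0.543 CPM in extract 0 h and 0.550, 0.775 and 0.524 CPM in extract 4 h, against 0.851, 0.805 and 1.12 CPM in Ctrl. It was the only member with all 6 extract libraries below Ctrl, beside 1.23% of all genes, and its averaged log2 fold change was -0.65 (edgeR adjusted p = 0.752). At this depth, 13 to 18 reads per Ctrl library, the interval in extract 0 h ran from -1.62 to 0.13. At 0 h, 3 members, or 7.5%, stood wholly below Ctrl (adora2a.L, p2ry1.L and slc29a2.L), beside 3.70% of all genes. None stood wholly above it, beside 3.98%.

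The best-detected receptors again had intervals that included 0 in extract 4 h. In extract 4 h p2rx4.L had 11.9, 11.006 and 10.5 CPM, against 9.49, 8.14 and 10.7 CPM in Ctrl, a log2 fold change of 0.24 with a 95% interval of -0.12 to 0.61. For p2ry6.S the extract 4 h libraries had 17.3, 15.97 and 12.8 CPM, a log2 fold change of 0.06 with an interval of -0.33 to 0.45. In extract 0 h the values were 0.01 for p2rx4.L and 0.04 for p2ry6.S. The deaminase gene ada2.S had 42.5, 39.3 and 35.4 CPM in extract 4 h, against 34.6, 35.3 and 31.4 CPM in Ctrl, a log2 fold change of 0.21 with an interval of -0.04 to 0.46.

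The remaining receptors above 1 CPM at rest were read too thinly for narrow intervals. For p2ry2.L the log2 fold changes were 0.02 (ATP 0 h), 0.29 (ATP 4 h), -0.10 (extract 0 h) and 0.19 (extract 4 h), and for p2ry2.S they were -0.77, -0.46, -0.63 and -0.90 in the same order. The copies of P2Y2 thus differed in sign in 3 of the 4 comparisons, and none of these values had an unadjusted edgeR p under 0.05. The p2ry2.S libraries had 0.246, 0.418 and 1.99 CPM in extract 0 h, against 1.51, 1.43 and 0.882 CPM in Ctrl, so its spread within a group was as wide as the difference. For p2ry11.L the values were -0.19, -0.20, -0.28 and -0.39, and for p2ry10.S 0.10, 0.02, 0.14 and -0.48.

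Averaged over both times, 2 members had an unadjusted p under 0.05 after ATP (enpp2.L and p2ry4.L, beside 2.16% of all genes) and 3 after the extract (enpp2.L, entpd2.L and slc29a2.L, beside 7.00%). No member was called in either comparison, beside 0.00416% and 0.00% of all genes. With the replicate number as a block, 0 members and 0.195% of all genes were called after the extract. DESeq2 and limma-voom called 0 members in both comparisons, with 3 and 1 calls over all genes after ATP and 5 and 0 after the extract. On the authors' deposited table limma called 0 members after ATP, beside 0.925% of all genes. After the extract it called 3 of 50 members, or 6%, beside 5.93% of all genes (ada2.S, enpp2.L and p2ry1.L). After the extract 30 of 40 members had a value below 0, or 75%, beside 48.8% of all genes, and after ATP 21 did, or 52.5%, beside 50.7%. Set against each other, extract and ATP differed in 0 members at an unadjusted p under 0.05, beside 9.02% of all genes. Log2 fold changes of extract over ATP were below 0 for 27 of 40 members, or 67.5%, beside 50.5% of all genes, with a median of -0.11 over the members and 0.00 over all genes. No member was called there either, beside 0.00% of all genes, and by DESeq2 and limma-voom 0, with 1 and 0 calls over all genes. Limma on the authors' deposited table called 2 of 50 members, or 4%, beside 5.37% of all genes. These were ada2.S and ada.2.S, a row with too few reads to enter the edgeR test.

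Between extract 4 h and extract 0 h, 1 member had an unadjusted p under 0.05, enpp6.L, beside 2.37% of all genes. Its libraries had 1.51, 1.24 and 0.851 CPM in extract 4 h, against 0.676, 0.537 and 0.181 CPM in extract 0 h, with no overlap, a log2 fold change of 1.30 (SE 0.51; edgeR adjusted p = 1.00). In ATP the corresponding value was 1.01 (edgeR adjusted p = 0.573), with 1.57, 1.04 and 0.673 CPM in ATP 4 h, against 0.485, 0.331 and 0.856 CPM in ATP 0 h. The 2 groups overlapped there. The Ctrl libraries had 0.851, 0.537 and 1.28 CPM, and their mean of 0.890 CPM lay between the 0 h and 4 h means of both stimuli. With entpd1.L, enpp6.L made 2 members whose extract 4 h libraries all stood above extract 0 h, beside 3.73% of all genes, and no member was called by edgeR, beside 0.00% of all genes. DESeq2 and limma-voom called 0 members, with 4 and 0 calls over all genes, and limma on the authors' deposited table called 0, beside 1.02% of all genes. Log2 fold changes were below 0 for 24 members, or 60%, beside 50.5% of all genes, and no member had every extract 4 h library below extract 0 h, beside 3.33%.

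Levels were also compared between replicate numbers across groups. A test of the replicate number beside the groups, added after the values were seen, called 790 genes (3.28%) and 2 of the 40 members (5%). The surface NTPDase gene entpd3.L had 6.33 to 8.25 CPM in the 5 libraries numbered 3, against 3.60 to 5.04 CPM in those numbered 1 and 4.08 to 7.02 CPM in those numbered 2 (edgeR adjusted p = 0.0413). The A2B adenosine receptor gene adora2b.S had 0.0904 to 0.327 CPM in libraries numbered 3, against 0.481 to 0.928 and 0.537 to 1.05 CPM in those numbered 1 and 2 (edgeR adjusted p = 0.0452). No library numbered 3 overlapped the others in adora2b.S, whatever the stimulus, but this gene is read thinly, with 1 to 19 reads per library. For p2ry6.S the libraries numbered 1 had 15.998 to 18.5 CPM and the others 11.5 to 15.97 CPM, which did not pass (edgeR adjusted p = 0.113). What a number stands for is not stated in the labels.

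**Figure D5:**
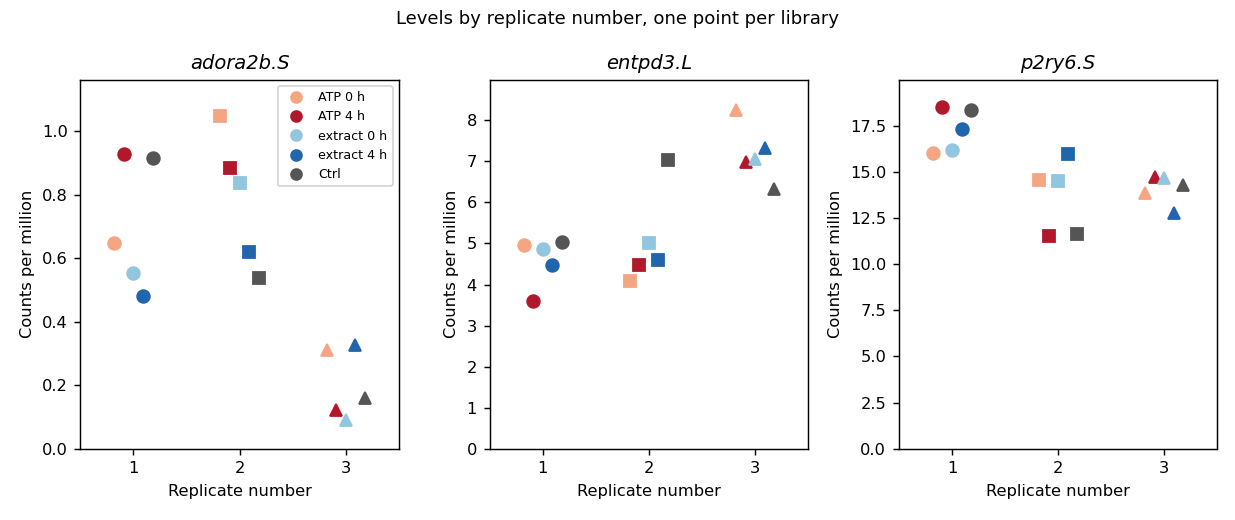
CPM of adora2b.S, entpd3.L and p2ry6.S in each of the 15 libraries by replicate number, coloured by group. In adora2b.S all 5 libraries numbered 3 lie at or below 0.327 CPM, under every library numbered 1 or 2.

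The precision of these comparisons depended on read depth. Among the 15 tested members with a mean of at least 10 CPM, the half-width of the 95% interval in the 4 single-time comparisons with Ctrl was 0.224 to 0.482 on the log2 scale, with a median of 0.309. Among the 25 below 10 CPM, which include all tested receptors but p2ry6.S, it was 0.299 to 1.87, with a median of 0.851. Differences smaller than these could not be told from no change at this depth and number of pools. These intervals are for single genes, without adjustment, so a larger difference can still fail the adjusted threshold. One such case was enpp2.L in extract 4 h (-0.74, edgeR adjusted p = 0.644).

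Other genes of the pathway were taken from a list of release channels, nucleotide-metabolising enzymes and signalling proteins below the receptors, of which 100 rows were in the table and 86 were tested. In each of the 9 comparisons 0 of the 86 passed the adjusted threshold. At an unadjusted p under 0.05 there was 1 higher and 0 lower in ATP 0 h, 0 in ATP 4 h, 0 in extract 0 h, and 1 higher and 1 lower in extract 4 h. These are 1.16%, 0%, 0% and 2.33% of the list, beside 3.58%, 3.29%, 4.53% and 7.27% of all genes. The gene in ATP 0 h was gna14.L, which encodes a G protein alpha subunit of the phospholipase C pathway used by several P2Y receptors, with 121 ± 2.01 CPM in ATP 0 h and 104 ± 5.35 CPM in Ctrl (SD, n = 3 each). Its log2 fold change was 0.22 (edgeR adjusted p = 0.984). In extract 4 h the lower gene was prkcd.L, a protein kinase C gene, with 48.5 ± 2.55 CPM against 56.8 ± 3.85 CPM in Ctrl (SD, n = 3 each) and a log2 fold change of -0.23. The higher gene there was adcy1.S, with 0.908 CPM against 0.438 CPM in Ctrl. Its log2 fold change was 1.04, and the groups overlapped.

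Averaged over both times, 1 gene of this list was higher and 1 lower after ATP at an unadjusted p under 0.05, and 1 was higher and 0 lower after the extract, or 2.33% and 1.16% of the list, beside 2.16% and 7.00% of all genes. After ATP the higher gene was gna14.L again (0.19) and the lower was gnaq.S (-0.44), whose ATP and Ctrl libraries overlapped. After the extract the higher gene was the adenylate kinase gene ak7.S, with 61.0 CPM in the 6 extract libraries and 49.8 CPM in Ctrl. Its log2 fold change was 0.29. Extract against ATP gave 0 higher and 6 lower, or 6.98% of the list, beside 9.02% of all genes, among them gna14.L (-0.20, edgeR adjusted p = 0.548). Between 4 h and 0 h there were 3 higher and 0 lower after ATP, or 3.49% of the list, beside 8.84% of all genes, with itpr1.S, a calcium release channel gene, at 0.60. After the extract there was 1 higher, prkca.L, at 0.44, and 1 lower, nt5dc3.L, at -0.53, together 2.33% of the list, beside 2.37% of all genes.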

How the data were processed

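Stranded, rRNA-depleted total RNA of 15 libraries was sequenced, per the labels. The authors deposited expected counts of every gene in each library, estimated with RSEM per the file headers. A second deposited table holds log2 values of 28009 genes from which surrogate variables had been removed. Its log base is assumed from convention. The submitters' processing notes name fastp, STAR, RSEM and limma with no role, and the genome build and annotation are not given in the sources used here. No other column held values of single samples (0 columns).

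Expected counts were rounded, filtered with filterByExpr, scaled with TMM factors and tested with edgeR 4.0.16 (R 4.3.3), using a robust quasi-likelihood fit with 1 coefficient per group over all 15 libraries. The two-sided p-values of 24052 genes were corrected together (Benjamini-Hochberg, threshold 0.05). Dividing a fitted log2 fold change by the root of its F statistic gave the standard error, and the prior count was 0.125. Intervals are at 95%. The alternatives were DESeq2 1.42.0, limma-voom (limma 3.58.1), limma on the adjusted table, RLE factors, no filter, the compared groups only, summed homeologs, the replicate number as a block and leaving out each library. Fits with the replicate number as the effect tested and with the muscle marker sum were added after values were seen.

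The members and gene lists were chosen with earlier results of these data known. Values of single libraries are given, in the groups compared, for members with an unadjusted p under 0.05. The same holds for the 3 smallest p-values of each single-time comparison with Ctrl. For receptor and pannexin genes at 1 CPM or more in Ctrl they are given for some groups only. For p2ry2.L only the Ctrl mean and SD and the log2 fold changes are given. Other genes named with values, such as p2ry1.L, p2ry2.S, ada2.S, adora2b.S and entpd3.L, were chosen after their values were seen. All 70 members matched RefSeq genes (assembly version 10.1), used for neighbours and synonyms only. Levels per transcript length were not computed.

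Replicate numbers recur in each group. Deviations from group means correlated above 0.1 for all 3 numbers in 5 of 10 pairs of groups (0.158 to 0.494), where they were taken to pair the samples. These pairs were Ctrl with ATP 0 h, ATP 4 h and extract 0 h, and ATP 0 h with ATP 4 h and extract 0 h. Elsewhere the lowest correlation was 0.0621 or less. The main fit does not use this pairing. Standard errors, intervals and p-values of single genes come from fits without it, unless the replicate number is named.

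The test was also run on simulated data for ATP 0 h against Ctrl (23698 genes tested). It recovered 71.1% of genes raised by 1 and 65.4% of genes lowered by 1 on the log2 scale, and 92.9% and 96.7% at changes of 2. The changed genes were drawn only from those above a set mean count. Most tested receptor rows do not reach it, among them both copies of p2ry1, p2ry2 and p2ry11, and p2ry4.L. These shares therefore do not describe such thinly read members. Planted changes also make the adjusted threshold easier to pass than in data with few changes.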

Additional observations from a re-analysis of the deposited data

How the results depend on the processing

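No member was called in any of the 9 comparisons by the main test, by the other count-based fits or when a library was left out. The limma test of the authors' deposited adjusted table was the exception. It called 1 member in ATP 4 h, 2 in extract 4 h and 3 in extract averaged over both times, each against Ctrl, and 1 in ATP 4 h against ATP 0 h and 2 in extract against ATP. That is 2% to 6% of the 50 members tested there, beside 2.04% to 6.44% of all genes in these comparisons. That fit does not count the surrogate variables removed beforehand, so its p-values can be too small. The cause of the difference was not tested. Over all genes, calls per comparison numbered 0 to 3 by edgeR, 0 to 3 by limma-voom, 0 to 35 by DESeq2 and 259 to 1805 in the adjusted table.

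With the replicate number as a block, 0 members were called in each comparison. Over all genes the block gave 47 calls in extract averaged against Ctrl (0 without it), 5 in extract 0 h against Ctrl (0 without it) and 14 in ATP 4 h against ATP 0 h (3 without it). In extract 4 h, whose numbers were not taken to pair, members at an unadjusted p under 0.05 numbered 1 with it and 3 without.

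The median log2 fold change of the members moved in some settings. With the muscle marker sum as a covariate it was -0.077 in ATP 4 h against Ctrl, -0.065 in ATP 4 h against ATP 0 h and -0.010 in extract against ATP. In the adjusted table it was -0.093 in extract 4 h against Ctrl and -0.050 in extract against ATP. With a library left out, it ranged from -0.104 to 0.0089 in ATP 4 h, -0.219 to -0.069 in extract 0 h, -0.245 to -0.113 in extract 4 h, -0.088 to -0.0040 in ATP averaged and -0.198 to -0.079 in extract averaged, each against Ctrl, and from -0.108 to 0.0059 in extract 4 h against extract 0 h. The most negative values came without Ctrl replicate 3, or in the extract 4 h comparisons without extract 4 h replicate 3. The main medians are over 40 members, those with a library left out over 42 or 43, and those of the adjusted table over 50. The set of members thus changed along with the setting.

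The number of members at 1 CPM or more in Ctrl, 27, was 27 to 30 with a Ctrl library left out. In the other settings it was 21 to 41, and the 41 were reached at 0.5 CPM. The receptor rows p2ry2.S, p2ry2.L, p2ry11.L, p2ry4.L and p2ry10.S, with Ctrl means of 1.27 to 1.94 CPM, stand closest above 1 CPM and depend most on this threshold.

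Of 314 values of single genes recomputed, 308 kept their direction and side of the threshold. Another 3 became called in the adjusted table (adora2a.S in ATP 4 h against ATP 0 h, p2ry4.L in ATP 4 h, and enpp2.L in extract averaged). The other 3 changed sign. These were entpd4.L in ATP 0 h with homeologs summed (-0.020), and entpd1.L in extract 0 h in the adjusted table (0.329) and with the muscle marker sum (0.453). With the compared groups only, entpd1.L gave no value, since it did not pass the filter. No main value was called, so the side of the threshold could change only by a new call. Size was not part of this count. For entpd2.L in extract 0 h the value went from -1.19 to -0.07 with the muscle marker sum and still kept its direction. Depth limits most receptors, which were read at under 10 CPM.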
